A study of Bos taurus with 16 samples.

Results

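Of the regions of read coverage found in rumen papillae, 974 lay inside introns, with no annotated exon in them, and reached a mean coverage per base of at least 2 over 16 steers. They were chosen by that mean and by the deposited annotation, which had to name only introns. The mitochondrial genome, the introns of ASIP and 1 stretch of chromosome 14 were left out, and that stretch held 18 further intron regions with a mean of at least 2. The 974 regions are 0.0993% of the 981120 intron-only regions off the mitochondrial genome and 0.0414% of all 2351373 regions. They fall in 501 host genes, meaning the genes whose introns hold them. The mean that chose them is given below as a description and was not tested.

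Introns are cut out of the primary transcript in the nucleus, and selection of polyadenylated RNA leaves little of them in a library. Coverage inside an annotated intron can come from an intron that stays in the mature RNA, from an exon or a late polyadenylation site that the annotation lacks, or from another transcription unit nested in the intron. It can also come from reads of an expressed gene that align to a processed pseudogene, an intron-less copy of an mRNA inserted elsewhere in the genome. Ruminant genomes hold many such copies, and a short read often cannot tell a copy from its parent gene.

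Papillae are the finger-like projections of the rumen wall, lined by the stratified epithelium that takes up and burns short-chain fatty acids. The 16 libraries, 1 per animal, came from crossbred steers aged 344 ± 48 days that ate 1 ration at will (57.35% corn, 30% distillers grains and 8% alfalfa), and no other treatment was given. The animals had been placed by body weight gain and feed intake into 4 groups of 4 animals: high gain, high intake; high gain, low intake; low gain, high intake; and low gain, low intake. Polyadenylated RNA was read as single reads of 50 bases, and no use of strand is stated, so a transcript on either strand of an intron counts toward it.

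Coverage is the mean read depth per base of a region, so levels of regions of different length can be set side by side. The authors brought the libraries to almost equal totals, the mitochondrial genome included. That genome took 8.75% to 28.0% of the bases, with means of 18.3% at high gain and 12.6% at low gain. A scaling to the total without it is therefore given below as an alternative. The libraries held an estimated 11.9 to 21.2 M reads, and a member held a median of 22.5 estimated reads per library, with 45 members under 5. The labelled tissue fits its epithelial markers, with KRT6A at a mean of 2097, PERP at 879 and KRT14 at 392. The lowest of that list was DSG1, with a mean of 12.1 and a median of 4.495. HBB and ALAS2 of erythrocytes averaged under 0.1. Of the leukocyte markers CD79A averaged 0.099, CD3E 1.24, PTPRC 1.96 and CD14 15.9. Fibroblast markers were covered too, from DCN at 17.8 to COL3A1 at 98.4. In bulk tissue, fewer cells of a type and less RNA per cell cannot be told apart. A set of 5 libraries stands apart by low coverage of first exons: high gain, high intake replicate 4, high gain, low intake replicates 2, 3 and 4, and low gain, low intake replicate 3. The median log2 level of first exons minus that of later exons of the same gene was -2.61 to -1.99 in them and -1.28 to -0.375 in the other 11 libraries (1892 genes). Of these 5 libraries, 4 are from high gain animals and 4 from low intake animals. The tests of gain and of intake are therefore given with and without them.

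The regions were short, with a median length of 113.5 bases, quartiles of 86 and 215, and a range of 31 to 6147. Their means over 16 libraries ran from 2 to 1575.5 with a median of 5.30. A mean of at least 10 was reached by 295 regions and one of at least 100 by 62. Coverage was above 0 in all 16 animals for 781 regions (80.2%), next to 81.5% of the exon-bearing and 79.1% of the intergenic regions with the same minimum mean. Regions of the same host less than 5000 bases apart formed 537 loci. Of these, 329 held 1 region and 208 held 2 to 9, with a median gap of 69 bases between neighbours. Members were found on 30 chromosomes, and chromosome 5 had the largest number, 89, which is 9.14% of members against 5.47% of all intron-only regions.

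The 974 regions together took 0.900% to 1.23% of the bases off the mitochondrial genome in each library. That was 25.9% to 48.9% of all bases in intron-only regions, and the 10 members with the most bases held 28.7% of the members' bases. Members listed at 0 numbered 41 to 137 in the 5 libraries low in first exons and 8 to 22 in the other 11.

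The level of an intron region was set against the best covered exon region of its host gene. Of 932 members whose host has an exon region in the table, 374 were at or below it, 255 lay between 1 and 10 times above it, and 303 exceeded it more than 10-fold. The other 42 members fell in 14 host genes with no exon region at all. Of the 303 regions, only 109 had a host exon that reached 0.5 in at least 4 libraries. Most ratios over 10 thus rest on a barely covered exon and are imprecise. The plot of intron against exon level shows that most members with a mean over 100 sit in hosts whose exons were covered far less. The low group was longer (median 159.5 bases) and closer to an exon (median distance 2068 bases, 140 of 374 within 1 kb), whereas regions over 10 times their host were 96 bases long and 12520 bases away, with 26 of 303 within 1 kb. Across the 16 libraries, the correlation of a region's log2 level with its host exon had a median of 0.481 over the 374 regions at or below the exon, 0.184 over 249 of the intermediate regions and 0.231 over 109 of the regions over 10 times. Over the 11 libraries not low in first exons these medians were 0.419, 0.238 and 0.152. The points share library and depth, so these are descriptions.

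**Figure D1:**
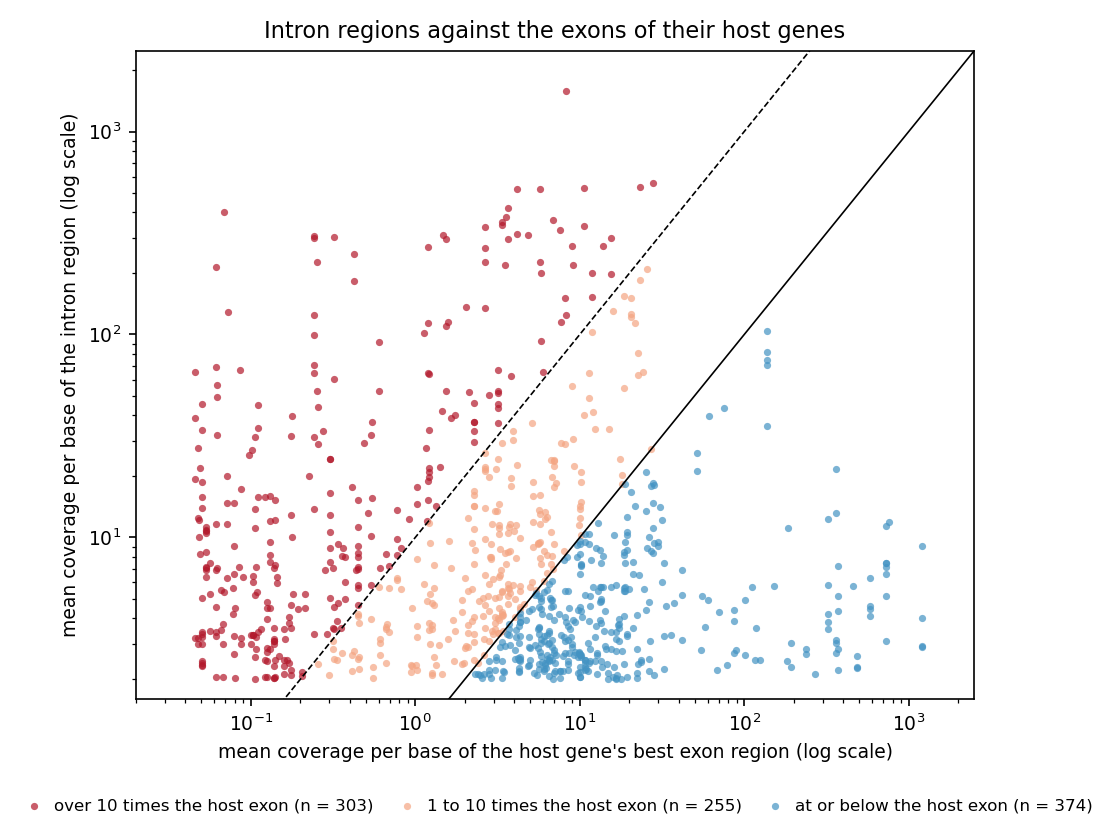
Mean coverage of each intron region (vertical) against that of the best covered exon region of its host gene (horizontal), both as mean coverage per base over 16 libraries on log scales, 1 point per region. The solid line marks equal coverage and the dashed line a 10-fold excess; 303 regions lie above the dashed line and 374 at or below the solid one.

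Host genes of well-covered intron regions often contain another annotated gene. In the RefSeq annotation of ARS-UCD2.0, a later assembly used here only for names and for which genes lie inside others, 495 of the 501 hosts were found. A pseudogene lay within the span of 46.4% of the 153 hosts of regions over 10 times their exons, of 44.4% of 160 hosts of the intermediate regions and of 21.1% of 237 hosts of regions at or below the exon. Among 10814 matched hosts of all intron-only regions the share was 5.02%. A protein-coding gene lay within 28.1%, 25% and 11.8% of the hosts of these classes, in the same order, against 3.90% of all matched hosts. Long genes have more room for a nested gene. Median host length was 116, 87.9 and 50.3 kb in these classes, in the same order, against 25.9 kb over all matched hosts. The pseudogene shares, but not the protein-coding shares, were therefore also taken within bins of host length. In hosts under 25 kb the pseudogene share was 33.3% of 15 hosts of regions over 10 times the exon and 0.813% of 5167 hosts without a well-covered region. In hosts over 200 kb it was 45.3% of 53 and 16.3% of 608. Whether the pseudogene or protein-coding gene covers the region itself was not tested, because the files use another build.

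**Figure D2:**
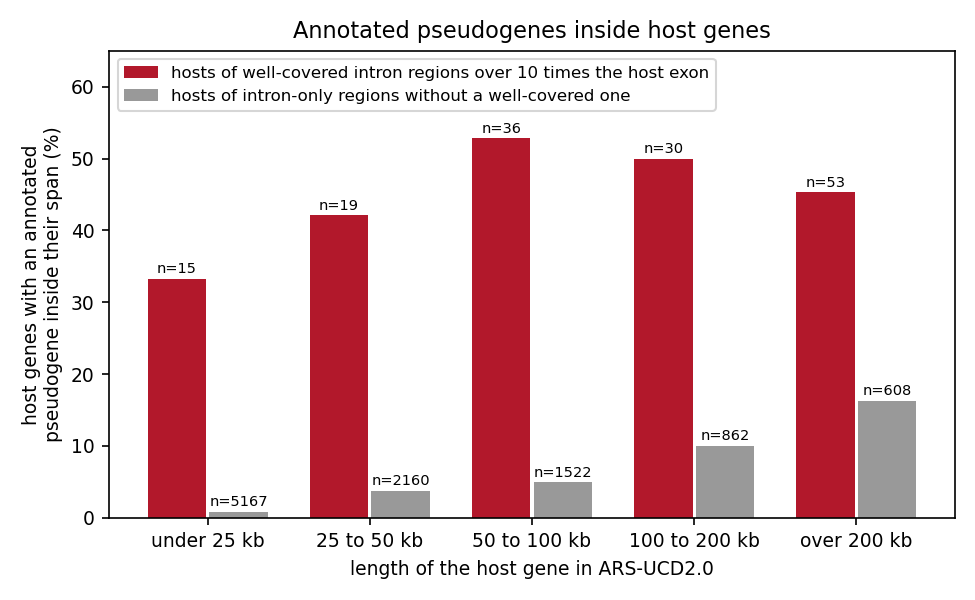
Share of host genes (%) with an annotated pseudogene inside their span, by length of the host gene in ARS-UCD2.0. Red bars are hosts of well-covered intron regions over 10 times the host exon, grey bars hosts of intron-only regions without a well-covered one, and n is the number of host genes; the red bar is the higher in each of the 5 length bins, from 33.3% against 0.813% to 45.3% against 16.3%.

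The highest coverage of all, a mean of 1575.5, was in an intron of CDC2L1 (chr16:52249655-52249992, UMD3.1), which ARS-UCD2.0 names CDK11B, a cyclin-dependent kinase of transcription and splicing. Its host's best exon averaged 8.30, and the pseudogene LOC100295775 lies within the host's span in ARS-UCD2.0. Coverage was 1480.1, 1913, 1713 and 338 in high gain, high intake animals, 1524, 259, 403 and 696 in high gain, low intake, 2281, 2498, 1796 and 3156 in low gain, high intake, and 2199.8, 2161, 126 and 2664 in low gain, low intake. All 5 libraries low in first exons, at 126 to 696, were below the other 11, at 1480.1 to 3156.

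A second kind of top region varied less between animals. PRKAR2A, a regulatory subunit of protein kinase A, had a region at chr22:51691948-51692481 with 434, 367, 628 and 796 in high gain, high intake, 508, 633, 549 and 760.2 in high gain, low intake, 486, 533, 454 and 511 in low gain, high intake, and 497, 538, 613 and 639 in low gain, low intake animals. The groups overlap, and the exon of this gene averaged 27.9. ITCH, a ubiquitin ligase, was similar at chr13:64372656-64372871, with a mean of 528 against 10.5 in its exon, a range of 344 to 748 and an SD of 0.298 on the log2 scale.

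Some of the top regions lost most of their coverage in a few libraries. A region of 81 bases in MRPS25, which encodes a mitochondrial ribosomal protein, lies at chr22:57903658-57903738. It had 518, 494, 520.0 and 31.1 in high gain, high intake animals, 571, 11.7, 323 and 753 in high gain, low intake, 797, 714, 624 and 654 in low gain, high intake, and 794, 858, 4.21 and 866 in low gain, low intake. The 3 values under 50 all come from libraries low in first exons, while the remaining 13 exceed 300. APBB2, an adaptor that binds the amyloid precursor protein, had a mean of 518 at chr6:61410330-61410488, and its 5 libraries low in first exons lay at 8.59 to 244 against 513 to 838 in the other 11. SPIN1, a reader of histone marks, averaged 368 at chr8:91215055-91215135, with 16.0 to 530 in the 5 libraries and 373 to 537 in the other 11.

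KDM5A, a histone demethylase, held both kinds in the intron between exons 21 and 20. At chr5:107749943-107750075 coverage averaged 522, with 545 to 744 in the libraries low in first exons and 339.9 to 562 in the other 11. Its neighbour at chr5:107749695-107749773, chosen after its values were seen, averaged 314. There the animals had 320, 348, 416 and 11.4 in high gain, high intake, 292, 5.36, 79.7 and 198 in high gain, low intake, 498, 531, 363 and 383 in low gain, high intake, and 519, 510, 3.96 and 553 in low gain, low intake. The libraries that were low in the second region were thus not low in the first. The host's best exon averaged 4.13.

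Also among the 10 highest were NEGR1, a neuronal adhesion protein, at chr3:73263676-73263890, and DPYD, the first enzyme of pyrimidine breakdown, at chr3:45646859-45646945. NEGR1 had a mean of 399.7 and ranged from 199.9 to 640.5. DPYD had a mean of 380 and ranged from 180 to 521. The best exons of both genes were far lower, at 0.0688 in NEGR1 and 3.57 in DPYD.

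**Figure D3:**
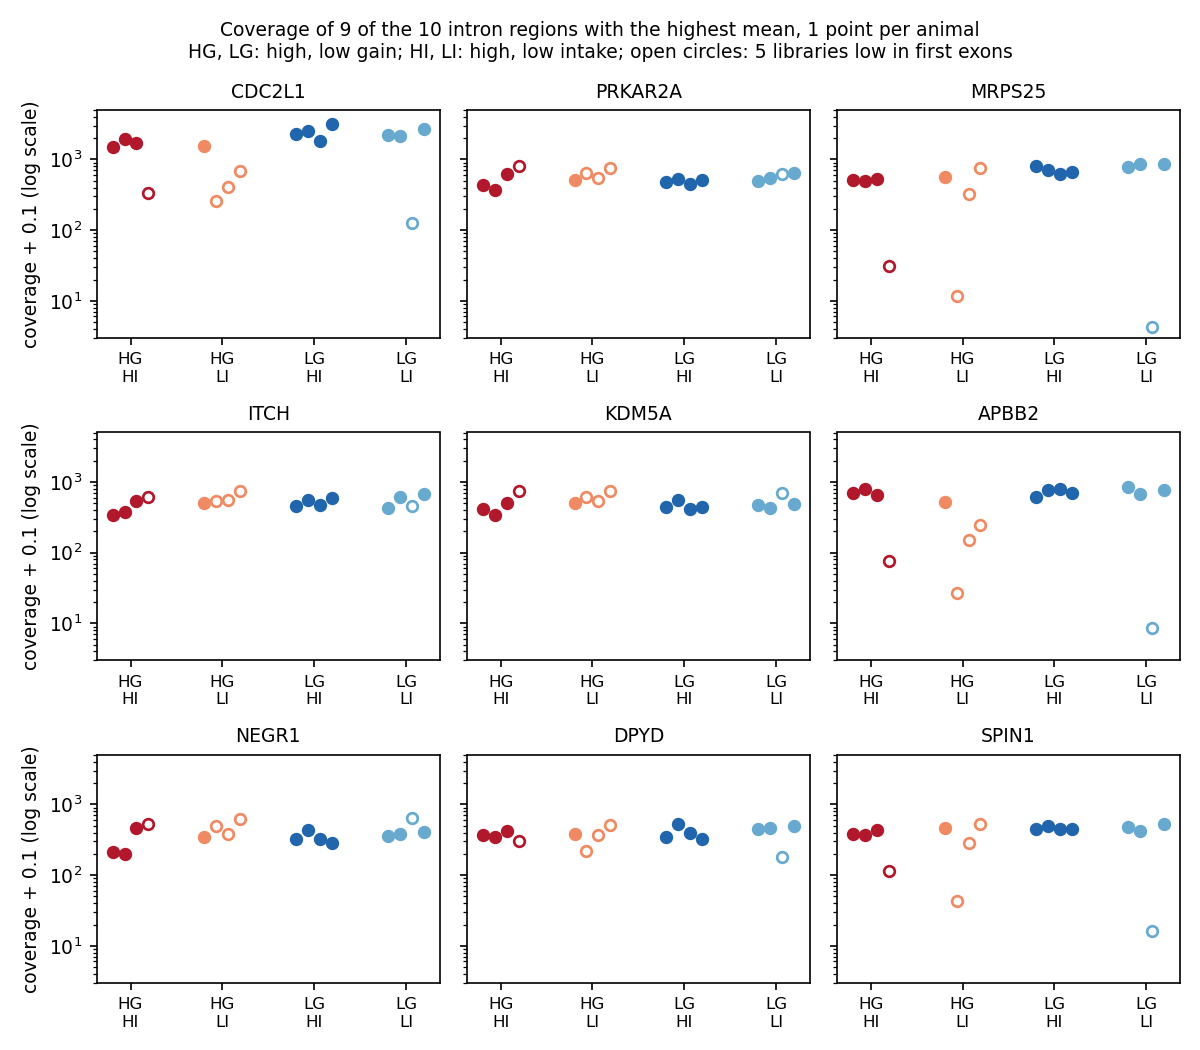
Coverage plus 0.1 (log scale) of 9 of the 10 intron regions with the highest mean, with 1 point per animal and the groups side by side; open circles mark the 5 libraries low in first exons. In CDC2L1, MRPS25, APBB2 and SPIN1 open circles reach 126, 4.21, 8.59 and 16.0, while PRKAR2A and ITCH stay above 340 in every animal.

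NEGR1 was also the region furthest above its host, at 5814 times the exon mean. Next came NELL2, a secreted neural protein, at chr5:35704743-35704853 with a mean of 216 and 3487 times its exon, PALM2 at chr8:101049739-101049866 with 129 and 1763 times, and HFM1, a helicase of meiosis, at chr3:52163847-52163940 with 65.7 and 1440 times. The hosts' own exons averaged 0.0456 to 0.0731 in these 4 genes, which is near the level of a single read, so the ratios are imprecise. The fifth was SLC16A7, a monocarboxylate transporter, at chr5:54107132-54107249, with a mean of 304 and 1262 times its exon. NELL2 and SLC16A7 contain an annotated protein-coding gene (LOC101906916 and LOC512953), and NEGR1, PALM2 and HFM1 an annotated pseudogene.

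At the other end, EXPI, which ARS-UCD2.0 names WFDC18 and which encodes a secreted proteinase inhibitor, had the lowest ratios. Its best exon averaged 1209, and the region at chr19:14614781-14615112 averaged 2.88 (0.00238 times the exon), starting or ending 8 bases from an exon region. A second region at chr19:14615451-14615549 averaged 2.93 and lay 29 bases from an exon.

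Several hosts held a run of regions in 1 intron. PIK3C2G, a phosphoinositide kinase, had the most, with 10 regions in 2 loci at means of 2.51 to 15.3, while its exons averaged 0.448. SLC16A7 had 9 regions in 1 locus between chr5:54106954 and chr5:54108731, at means of 3.36 to 304. Within that run coverage was 304 and 300.2 in neighbouring stretches near its start, 125 and 64.6 in the next stretches, and 3.36 in a stretch of 156 bases next to one at 99.7. PPP6R1, a regulatory subunit of a protein phosphatase, also had 9 regions in 1 locus, with means of 2.52 to 4.53 against 4.35 in its best exon.

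The PPP6R1 regions had correlations with their host exon of 0.933 to 0.982 over 16 libraries, the 5 low in first exons included. At chr18:62669513-62670186, the longest of them at 674 bases, coverage was 3.07, 3.38, 3.62 and 0 in high gain, high intake animals, 2, 0, 0.05 and 0.05 in high gain, low intake, 2.82, 4.86, 4.23 and 3.72 in low gain, high intake, and 5.17, 3.84, 0 and 3.51 in low gain, low intake. The 5 values at or near 0 are those of the 5 libraries low in first exons, and the region lies between exons 2 and 1. How far this split carries the correlations was not tested. Next came 4 hosts with 8 regions each. They are ACER3, an alkaline ceramidase (means of 3.38 to 66.5), SRD5A3, a polyprenol reductase of protein glycosylation (3.48 to 63.9), TMEM169, a transmembrane protein (5.01 to 24.4), and GNA14, a G protein subunit (2.02 to 3.56). In all of PIK3C2G, SLC16A7, ACER3, SRD5A3, TMEM169 and GNA14 the best intron region exceeded the best exon.

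Members of 1 locus were compared with members of different genes for how they vary together. The median correlation of log2 levels over 16 libraries was 0.556 for 905 pairs within a locus and 0.046 for 472803 pairs of different host genes. Over the 11 libraries not low in first exons the medians were 0.445 and 0.097. Neighbouring regions may share reads and fragments, so members of 1 locus were not taken as independent observations.

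The longest members were stretches of several kilobases. ZAK (MAP3K20 in ARS-UCD2.0), a stress-activated kinase, had 6147 bases at chr2:23480600-23486746 with a mean of 9.43, above its best exon at 5.57. Coverage there was 8.27, 6.02, 7 and 14.1 in high gain, high intake animals, 9.30, 14.5, 13.2 and 9.21 in high gain, low intake, 6.37, 5.64, 8.31 and 4.76 in low gain, high intake, and 7.4, 6.5, 22.9 and 7.39 in low gain, low intake. The single highest animal was low gain, low intake replicate 3. CD44, the hyaluronan receptor, had 5501 bases at chr15:66511484-66516984 with a mean of 3.14 and a range of 1.6 to 4.44, far under its exon at 41.6. GET4, a factor for membrane protein insertion, had 4739 bases at a mean of 5.15, CYP3A5, a cytochrome P450, 4097 bases at 3.22, and CD96, a lymphocyte receptor, 4081 bases at 5.83. In CYP3A5 and CD96 the intron region exceeded the best exon 30.1-fold and 10.8-fold, but these exons averaged only 0.107 and 0.539. CD96 contains the annotated gene ZBED2 in ARS-UCD2.0.

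Variation between animals ranged widely. The SD of log2 levels over 16 libraries had a median of 0.752 in members, against 0.685 in exon-bearing and 0.716 in intergenic regions with a mean of at least 2. The steadiest was DENND1A, an activator of Rab GTPases, at chr11:94831339-94831596, with an SD of 0.158. Its animals had 268, 251, 292 and 371 in high gain, high intake, 298, 275, 274 and 343 in high gain, low intake, 276, 298, 297 and 278 in low gain, high intake, and 275, 273, 359 and 309 in low gain, low intake. No group stands apart in it. A stretch of SLC16A7 at chr5:54107282-54107390 (SD 0.189), one of PAFAH1B1, a regulator of dynein (0.197), and one of SRP9, a part of the signal recognition particle (0.265), followed.

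The most variable regions were present in some animals and nearly absent in others. FHIT, a gene of a chromosomal fragile site, had a region at chr22:41836474-41836566 with 95.9, 0, 78.9 and 189 in high gain, high intake animals, 188, 0, 0.36 and 0.39 in high gain, low intake, 0 in all 4 of low gain, high intake, and 118, 0.43, 0 and 0 in low gain, low intake. In FHIT 5 animals of 3 groups had 78.9 or more and the other 11 had 0.43 or less, with an SD of 4.72 on the log2 scale. TACR3, a tachykinin receptor with no exon region in the table, had a region at chr6:22715143-22715302 with 0.22, 109, 63.9 and 121 in high gain, high intake, 0.39, 115, 175 and 82.0 in high gain, low intake, 0.61, 0.40, 0.50 and 64.0 in low gain, high intake, and 73.3, 126, 130 and 66.0 in low gain, low intake. In TACR3 11 animals were at 63.9 or more and 5 at 0.61 or less, and none of those 5 was a library low in first exons.

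ZC3H4, a zinc finger protein, had 0.69, 0.35, 0 and 0.51 at chr18:54569482-54569639 in high gain, high intake, 25.4, 37.97, 30.3 and 0 in high gain, low intake, 0, 14.7, 17.6 and 22.8 in low gain, high intake, and 0.26, 0, 0 and 0.24 in low gain, low intake. GLT1D1, of the glycosyltransferase family, differed otherwise, since its 5 libraries low in first exons lay at 0 to 0.38 and the other 11 at 2.55 to 61.4.

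**Figure D4:**
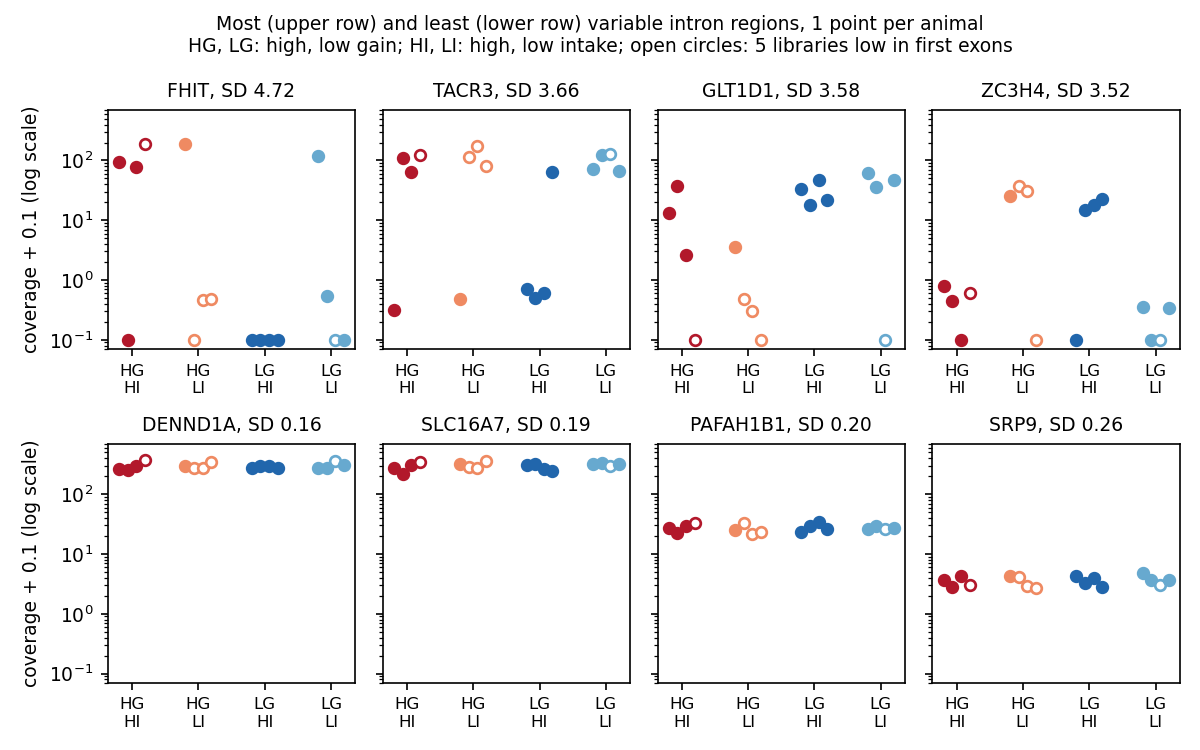
Coverage plus 0.1 (log scale) of the 4 most variable (upper row) and 4 steadiest (lower row) intron regions, with 1 point per animal, groups side by side and the SD of log2 levels above each panel; open circles mark the 5 libraries low in first exons. FHIT, TACR3 and ZC3H4 split into animals above 10 and animals below 1, while the 4 steadiest regions stay in a narrow band.

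An abrupt step, defined after the data were seen as a gap of at least 10-fold between neighbours in the ordered values with at least 3 libraries on each side and the upper side at 2 or more, was present in 31 members (3.18%). In exon-bearing and intergenic regions of the same minimum mean it was present in 1.86% and 2.29%. In 17 of the 31 only libraries low in first exons lay below the step, as in POR and BRWD1. In the other 14, animals outside those 5 libraries lay below it, as in FHIT, TACR3, ZC3H4, and the ADAMTS12 region at chr20:40040450-40040527. There coverage was 7.48, 0, 0 and 0 in high gain, high intake animals, 0, 26.1, 18.9 and 0 in high gain, low intake, 10.1, 13.3, 0 and 11.4 in low gain, high intake, and 9.68, 0.52, 0 and 8.67 in low gain, low intake. The 8 animals at 7.48 or more come from all 4 groups.

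The libraries low in first exons set some members apart. All 5 lay below the other 11 libraries in 93 members (9.55%), against 21.4% of exon-bearing and 17.0% of intergenic regions, and all 5 lay above them in 33 members (3.39%), against 2.47% and 2.18%. No test of these shares was made. One of them, low gain, low intake replicate 3, had the highest value of the 16 in 257 members (26.4%) and the lowest in 193 (19.8%). The next highest library in either count reached 96 and 127 members.

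Gain was tested as high minus low, each side averaged over its 2 intake groups, and 971 members entered the fit. Single regions of ARFIP1, C8H9orf80 and CYB5R4 reached 0.5 in fewer than 4 libraries and were not tested. No member passed an adjusted p of 0.05 in limma (0% of 124470 regions of all kinds did), and the smallest adjusted p among members was 0.242. At an unadjusted p under 0.05 there were 59 members (6.08%), against 9.8% of all regions. A second limma setting with neither trend nor robust fitting gave 52 such members, against 10% of all regions. In it 0 members passed the adjusted threshold, against 0.00723% of all regions. Of the 59, 16 were higher at high gain (1.65% of members, 1.27% of all regions) and 43 lower (4.43% of members, 8.54% of all regions). In 0 members did the 8 high gain and 8 low gain animals not overlap (0.00321% of all regions in each direction). The median difference over members was 0.05 on the log2 scale, against -0.11 over all regions.

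Those counts move with the scaling and with the libraries. With the first-exon index as a covariate, 245 members reached an unadjusted p under 0.05, 163 higher and 82 lower, against 12.8% and 4.89% of all regions, and the median turned to -0.08. Without low gain, low intake replicate 3 the number was 222 (62 higher, 160 lower, against 3.65% and 24.3% of all regions). In the 11 libraries not low in first exons it was 118 (26 higher, 92 lower, against 1.27% and 10.2%). It was 34 and 37 without low gain, low intake replicates 4 and 1, against 6.62% and 6.68% of all regions. Without high gain, high intake replicate 4 it was 38, against 6.33%. With each library scaled to the upper quartile of its exon-bearing regions, the median was 0.30 over members and 0.10 over all regions. At an unadjusted p under 0.05, 74 members were then higher and 29 lower, against 4.09% and 6.25% of all regions. Scaled to the total off the mitochondrial genome, the medians were 0.14 and -0.03. The split was then 33 to 36, against 2.17% and 7.49% of all regions. Without the 5 libraries low in first exons, which leaves a single high gain, low intake animal whose spread is taken to be that of the others, 8 members passed the adjusted threshold, all lower at high gain, beside 0.943% of all regions. They were KIAA1797, PPP6R1, HYAL2, LIMK2, TUBB2A, UNC13B, BCKDHB and EMP2, at log2 differences of -1.22 to -2.80. Leaving out low gain, low intake replicate 3 alone gave 49 members, 5 higher and 44 lower, beside 8.39% of all regions. Summed endothelial markers (5 of 5 in the table: PECAM1, VWF, CDH5, CLDN5 and TEK) ranged from 6.47 to 14.7 at high gain and from 14.3 to 24.2 at low gain, with VWF and CLDN5 at 0 in some libraries. Summed smooth muscle markers (5 of 5 in the table: ACTA2, TAGLN, MYH11, CNN1 and LMOD1) had a median of 18.6 and a highest value of 31.6 in high gain, high intake animals, a median of 15.4 and a range of 4.64 to 18.3 in high gain, low intake, 34.5 and 30.5 to 40.8 in low gain, high intake, and 62.0 and 3.25 to 89.2 in low gain, low intake, with CNN1 and LMOD1 at 0 in some libraries. The part of either cell type in the result was not tested.

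The regions with the smallest p for gain were, on the higher side, led by GABRB2, a subunit of the GABA-A receptor with no exon region in the table. At chr7:75244631-75244770 it had 5.24, 2.32, 4.58 and 5.36 in high gain, high intake animals, 3.21, 3.78, 5.48 and 4.47 in high gain, low intake, 1.71, 2.22, 1.02 and 1.33 in low gain, high intake, and 2.06, 2.24, 3.51 and 1.5 in low gain, low intake. All 8 high gain animals exceeded the low gain median, with some overlap, and the log2 difference was 1.14 ± 0.26 (SE, limma adjusted p = 0.242). ARS-UCD2.0 places a snoRNA gene, LOC112447602, within this host.

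PNP, purine nucleoside phosphorylase, followed at chr10:26668501-26668822, with 10.1, 14.1 and 22.6 as the lowest, median and highest of 8 high gain animals and 7.76, 9.14 and 14.6 of 8 low gain animals. The log2 difference was 0.52 ± 0.17 (SE, limma adjusted p = 0.357). SGTB, a co-chaperone, had 1.56, 3.36 and 5.89 at high gain and 0, 1.28 and 2.68 at low gain, TMEM97, a membrane protein of sterol handling, 3.46, 5.45 and 9.75 against 1.75, 3.35 and 5.71, and IGLON5, a neural adhesion protein, 2.70, 4.92 and 6.15 against 1.32, 2.54 and 5.01. In EXPI the region at chr19:14615565-14615685 had 2.28, 4.24 and 9.22 at high gain and 0.68, 2.67 and 7.11 at low gain. Each of these pairs overlapped between the groups.

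On the lower side stood 6 regions listed at 0 in 4 to 8 of the 8 high gain animals, which in each of the 6 included the 4 high gain libraries low in first exons. In PRKG1, a protein kinase activated by cyclic GMP, the region at chr26:7036834-7036908 had 0.45, 0.37, 0 and 0 in high gain, high intake animals and 0 in all 4 of high gain, low intake. Low gain animals had 42.3, 0.49, 3.52 and 6.35 with high intake, and 2.58, 17.3, 0 and 10.7 with low intake. The single low gain animal at 0 is replicate 3 of low gain, low intake, and the log2 difference was -4.59 ± 1.00 (SE, limma adjusted p = 0.242). Its neighbour at chr26:7036351-7036432 was listed at 0 in all 8 high gain animals and at 39.2, 0, 0.97, 5.97, 1.44, 15.0, 0 and 9.62 in the low gain animals, those with high intake first. The protein-coding gene CSTF2T lies within PRKG1 in ARS-UCD2.0, and the exons of PRKG1 averaged 0.214.

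SMAGP, a small membrane glycoprotein, had 0.83, 1.07, 0 and 0 in high gain, high intake and 0 in all of high gain, low intake at chr5:28683870-28684044. Low gain animals had 6.86, 0.33, 10.9 and 6.23 with high intake, and 3.46, 6.15, 0 and 10.5 with low intake. The log2 difference was -4.01 ± 0.95 (SE, limma adjusted p = 0.252). The region lies 33 bases from an exon of SMAGP between exons 1 and 2. HYAL2, a hyaluronidase, had 0, 0.165 and 2.07 at high gain and 0, 4.70 and 5.72 at low gain (log2 difference -3.29 ± 0.84, limma adjusted p = 0.252). FMO2, a flavin monooxygenase, had 0, 0 and 1.90 at high gain and 0, 1.70 and 28.1 at low gain, and FLVCR2, a membrane transporter, 0, 0 and 3.84 against 0, 3.56 and 12.3. In HYAL2, FMO2 and FLVCR2, as in SMAGP and the first PRKG1 region, the single low gain value of 0 came from replicate 3 of low gain, low intake.

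**Figure D5:**
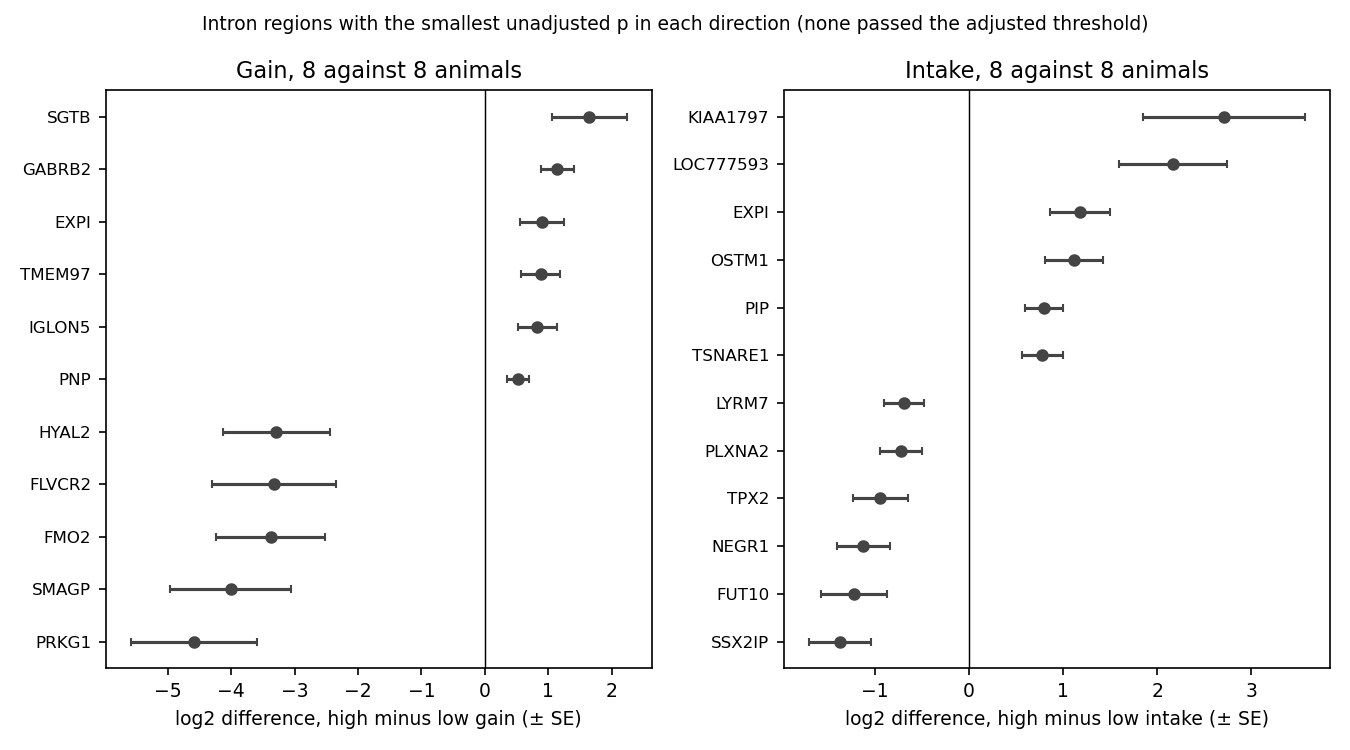
Estimated log2 differences (points) with their SE (bars) for the intron regions with the smallest unadjusted p in each direction, for high minus low gain (left) and high minus low intake (right), 8 against 8 animals. The largest gain estimates are negative, down to -4.59 in PRKG1, and no estimate passed the adjusted threshold; the PRKG1 region listed at 0 in all high gain animals is not drawn.

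Intake was tested in the same way, as both high intake groups minus both low intake groups. No member passed (0% of all regions did), and the smallest adjusted p among members was 0.659. An unadjusted p under 0.05 was reached by 81 members (8.34%, against 6.45% of all regions), 25 higher and 56 lower at high intake (2.57% and 5.77% of members, 2.82% and 3.62% of all regions). Limma without trend and robust options gave 59 such members, against 6.22% of all regions, and 0 past the adjusted threshold, against 0.00643%. With each library scaled to its exon upper quartile the split was 32 higher to 42 lower (3.65% and 3.23% of all regions), and scaled to the total off the mitochondrial genome it was 26 to 79 (2.94% and 4.44%). Without high gain, high intake replicate 4 the number reached 218, with 85 higher and 133 lower, against 10.9% and 6.66% of all regions. Without high gain, low intake replicate 2 it was 51, against 4.11% of all regions. In 0 members did high and low intake animals not overlap, against 0.00643% of all regions higher and 0.0185% lower. The median log2 difference was -0.10 over members and 0.05 over all regions. In the 11 libraries not low in first exons these medians were -0.18 and -0.11. With the first-exon index as covariate they were -0.08 and -0.07. With that covariate 82 members reached an unadjusted p under 0.05 in limma, 40 higher and 42 lower, against 2.14% and 3.77% of all regions.

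The higher side was led by PIP, a secreted prolactin-induced protein, at chr4:107301763-107302590. It had 12.3, 11.6, 28.0 and 18.6 in high gain, high intake animals, 13.9, 16.9, 19.4 and 17.1 in low gain, high intake, 8.49, 11.6, 13.3 and 8.86 in high gain, low intake, and 8.26, 10.7, 9.42 and 6.91 in low gain, low intake. All 8 high intake animals exceeded the low intake median, and the log2 difference was 0.80 ± 0.20 (SE, limma adjusted p = 0.659). In EXPI the region at chr19:14615834-14616152 had 5.85, 12.8 and 27.7 as lowest, median and highest at high intake and 2.85, 5.12 and 7.54 at low intake, while the EXPI exon had medians of 1461 at high intake and 865 at low intake. OSTM1, a subunit of a lysosomal chloride transporter, had 28.9, 57.5 and 144 at high intake against 18.6, 27.7 and 84.6 at low intake.

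The remaining 3 regions of the higher side had low values. LOC777593 had lowest and highest values of 0.79 and 8.91 at high intake against 0 and 1.07 at low intake. TSNARE1, a vesicle fusion protein, had 2.11, 2.85 and 3.68 against 1.23, 1.52 and 2.66 over a region of 3944 bases. KIAA1797, a focal adhesion protein, had 0, 3.54 and 5.92 against 0, 0 and 4.84, and 5 of its 6 values of 0 are in libraries low in first exons.

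On the lower side SSX2IP, a centrosome protein, had 3.59, 2.38, 10.4 and 9.71 at chr3:59596167-59596225 in high gain, high intake animals, 2.54, 2.42, 1.99 and 1.87 in low gain, high intake, 9.58, 11.9, 7.62 and 4.12 in high gain, low intake, and 7.61, 7.33, 17.8 and 12.98 in low gain, low intake. Among low gain animals the intake groups did not overlap, whereas among high gain animals they did. The log2 difference over both was -1.37 ± 0.33 (SE, limma adjusted p = 0.659), and the region lies in a host that holds the pseudogene LOC101904944 in ARS-UCD2.0. NEGR1 had a second region at chr3:73263476-73263598 with 1.49, 3.25 and 5.83 at high intake and 4.45, 7.04 and 11.5 at low intake (log2 difference -1.12 ± 0.28, limma adjusted p = 0.659).

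The other 4 regions had log2 differences of -0.69 to -1.22. FUT10, a fucosyltransferase, had 0.39, 1.45 and 2.42 at high intake and 1.95, 2.96 and 5.16 at low intake. PLXNA2, a semaphorin receptor, had 3.39, 6.495 and 9.84 against 7.94, 10.3 and 12.01, and LYRM7, an assembly factor of the respiratory chain, 4.05, 5.99 and 11.3 against 7.63, 9.48 and 13.8. TPX2, a spindle assembly factor of dividing cells, had 0.72, 1.71 and 2.43 against 1.88, 2.88 and 5.57, and its exon showed the same order, with medians of 4.72 at high intake and 7.20 at low intake.

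No interaction of gain and intake passed (0% of all regions, smallest adjusted p among members 1 in limma). At an unadjusted p under 0.05 there were 14 members, or 1.44%, against 1.76% of all regions (3 higher against 0.474%, 11 lower against 1.29%). With neither trend nor robust fitting there were 13, against 1.92% of all regions. The number was 97 without the 5 libraries low in first exons (6.59% of all regions), 81 with the first-exon index as covariate (6.39%), 55 without low gain, low intake replicate 3 (4.45%) and 36 without high gain, high intake replicate 4 (2.62%). It was 22 without low gain, high intake replicate 2 and without low gain, low intake replicate 1, against 1.87% of all regions in each. The 2 regions with the smallest p in each direction were those of SSX2IP (above) and CCDC141 on the higher side and a PNP region and ZC3H4 on the lower. The PNP region at chr10:26671313-26671585 had 2.91, 1.55, 3.09 and 3.56 in high gain, high intake, 11.6, 3.14, 4.32 and 4.64 in high gain, low intake, 6.36, 4.90, 3.49 and 3.97 in low gain, high intake, and 2.14, 1.14, 2.34 and 2.43 in low gain, low intake animals. High gain exceeded low gain at low intake and lay below it, with overlap, at high intake (interaction -2.14 ± 0.58, limma adjusted p = 1). In CCDC141 the interaction was 1.98 ± 0.78, with the highest value, 11.01, in low gain, low intake replicate 3.

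To ask whether an intron region moved apart from the exons of its host, the log2 ratio of the region to its best host exon was tested for 729 members among 7075 intron-only regions with both measured. No member passed for gain (0% of the 7075, smallest adjusted p 0.229) or for intake (0.0141% of the 7075, which is a single region outside the members, in TGFB2 at a mean of 0.346; smallest adjusted p among members 0.806). At an unadjusted p under 0.05 there were 39 members for gain (5.35%, against 7.34% of the 7075) and 26 for intake (3.57%, against 5.68%). For gain 14 were higher, against 4.24%, and 25 lower, against 3.1%, and for intake 14 were higher, against 3.21%, and 12 lower, against 2.47%. With neither trend nor robust fitting there were 40 and 23, against 7.59% and 5.8% of the 7075. In each 0 members passed the adjusted threshold, against 0% and 0.0141% of the 7075. For gain the number was 159 without low gain, low intake replicate 3 (69 higher, 90 lower, against 12.7% and 5.7% of the 7075), 145 with the first-exon index as covariate (94 higher, 51 lower, against 4.31% and 7.63%), 55 in the 11 libraries not low in first exons (8.06% of the 7075) and 21 without high gain, high intake replicate 4. The 21 members stood beside 5.74% of the 7075. For intake the number was 79 without high gain, high intake replicate 4 (11.3% of the 7075) and 40 without high gain, low intake replicate 1 (7.28%). With pseudocounts of 0.5 and 1 it was 39 and 46 (7.04% and 8.06%).

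For gain the smallest p on the lower side were those of HYAL2, with a ratio difference of -2.49 ± 0.52 log2 units, and SMAGP, with -2.93 ± 0.67 (SE, limma adjusted p = 0.229 for each). Exon levels were also lower at high gain in both, with medians of 4.21 against 9.81 in HYAL2 and 1.64 against 4.65 in SMAGP. On the higher side stood MTHFD2L, a mitochondrial folate enzyme, and NID2, a basement membrane protein. In MTHFD2L the intron region at chr6:90844777-90845793 had medians of 3.60 at high gain and 2.81 at low gain, while its exon had 0 and 1.66. Without low gain, low intake replicate 3 the ratio passed in MTHFD2L (3.70 log2 units, limma adjusted p = 0.0176), EFCAB2, HYAL2 and BCKDHB, beside 0.678% of the 7075 regions. In the 11 libraries not low in first exons no member passed, beside 0.0283% of the 7075.

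For intake the smallest p on the higher side were those of NID2, at 1.97 ± 0.53 log2 units, and KIAA1797, at 2.39 ± 0.65 (SE, limma adjusted p = 0.806 for each). NPAS2, a transcription factor of the circadian clock, and SSX2IP stood on the lower side, at -0.98 ± 0.35 and -1.06 ± 0.38 (limma adjusted p = 0.809 for each). The NPAS2 region at chr11:5928552-5928656 was 54.1 times its exon, with 35.4, 48.0 and 70.3 as lowest, median and highest at high intake and 64.1, 70.7 and 121 at low intake. KIAA1797 passed without high gain, high intake replicate 4 (2.95 log2 units, limma adjusted p = 0.0344), beside 0.0283% of the 7075 regions.

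Gene lists of the tissue were looked up among the hosts. None of the 45 measured genes listed for epithelial keratinization hosted a member, nor did any of the 26 listed for interferon and antigen presentation. These lists do not hold every gene of their kind. Outside them, members fell in KRT20 (mean 7.34), DMKN (39.5) and TP63 (4.59), in BoLA-DRB3 (means of 5.45 to 11.8) and in EIF2AK2 (2.03 to 5.47). For scale, members fell in 501 of the 10937 host genes of all intron-only regions. Neither these counts nor those of the lists below were tested against that share.

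ZFP36, which encodes an RNA-binding protein that speeds the decay of cytokine mRNAs, was the single host among 22 immediate early genes and held 6 members at means of 2.01 to 5.82. At chr18:49366731-49367102 the 5 libraries low in first exons had 0.10, 0, 0.61, 0.64 and 0 and the other 11 had 3.22 to 6.56. Median log2 differences over the 6 regions were -0.49 for gain and 0.88 for intake, with none at an unadjusted p under 0.05.

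Of 50 measured snoRNA host genes, whose introns carry small RNAs that guide RNA modification, 2 hosted a member. EIF4A2, an RNA helicase of translation, averaged 130 at chr1:81058176-81058470, 8.13 times its best exon, with 78.0, 130.2 and 231 as lowest, median and highest at high gain and 94.8, 102 and 249.9 at low gain. NOP56, a core protein of snoRNA particles, averaged 19.8 at chr13:52983739-52983896. In both, ARS-UCD2.0 places snoRNA genes within the host, 3 in EIF4A2 and 5 in NOP56. The list of splicing regulators gave HNRNPA2B1 and HNRNPK, the latter at 2.78. HNRNPA2B1 had a mean of 211 at chr4:70204989-70205126 (8.29 times its exon), with 521 in low gain, low intake replicate 3 as its highest value. The list of stroma and vessels gave FBLN1, a matrix protein, at 5.57. Outside these lists, members also fell in SFRS13A (means of 7.80 to 9.33) and NID2 (3.59 to 339.7). None of these passed for gain or intake.

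The share of all bases in intron-only regions, taken per library over the whole table, did not differ beyond the spread between animals. High gain animals had 2.94 ± 0.407% and low gain animals 2.68 ± 0.451% (SD, n = 8 each; exact permutation p = 0.252, two-sided, Benjamini-Hochberg 0.308 over 2 tests). It was 2.69 ± 0.269% at high intake and 2.92 ± 0.552% at low intake (exact permutation p = 0.308, Benjamini-Hochberg 0.308). When the 5 libraries low in first exons were left out, the gain difference was 0.0785 percentage points, against 0.254 with them (exact permutation p = 0.73 without them), and the intake difference changed sign, to 0.249 percentage points (exact permutation p = 0.155). The share was 2.77% to 3.63% in those 5 libraries and 2.26% to 3.28% in the other 11.

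At the edge of the rule, the members with the lowest means were regions of MRPS22 at 2, ZFP36 at 2.01 and SPIN1 at 2.01. Just outside it were regions of DKKL1 and DCAF6, both at 2.00, and of GSTK1, also at 2.00, with unrounded means of 1.9994, 1.9988 and 1.9981.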

How the data were processed

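Polyadenylated RNA of rumen papillae was read as single 50-base reads, per the labels' protocols. TopHat2 2.08b and the genome UMD3.1 are named in the submitters' processing notes; which program computed coverage, and on which annotation, is not given in the sources used here. Values of unit signal, as deposited, are the mean read coverage per base of each region times 1 factor per library, as read from the values. The deposited log2, ratio (fold), p-value, sum and mark columns of the authors' table were not used. Value times length divided by the value of 1 read gave estimated reads; no count test or interval was used. Every sample column was matched to an animal by the number in its title, so p-values measure the spread between animals.

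Regions whose annotation named only introns were kept by the rule given at the start of the report. The members, the gene lists and the tests were chosen with earlier results of these data known. Levels were analysed as log2(value + 0.1); a fold on this scale understates changes of low regions. All 124470 regions off the mitochondrial genome with at least 0.5 in at least 4 libraries (71522 exon-bearing, 7748 intron-only, 45072 intergenic, the rest with mixed or no annotation) went into limma 3.58.1 (R 4.3.3; moderated variances with trend and robust fitting) on 4 group means over 16 libraries. Tests are two-sided, with Benjamini-Hochberg adjustment over all regions fitted and a threshold of 0.05. The fit was tested on simulated data. Shares of bases were compared by exact permutation (12870 arrangements). Region names follow a rule that takes the highest means, the smallest p per direction, the largest and smallest SD and ratio, the longest regions and the hosts with most members. No sequence was used here. Reads of near-identical copies cannot be assigned with certainty, and how multiply aligned reads were treated is not given.

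Alternatives were pseudocounts of 0.5 and 1, other filters on low values, other scalings, limma without trend and robust options, a first-exon index as covariate, other member minimums of 1 and 4, another host level, and leaving out libraries. The first-exon index is the median over 1892 genes with at least 6 exons of the log2 level of exon 1 minus that of later exons. Some regions, and the lists that need them, are not reported here.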

Additional observations from a re-analysis of the deposited data

Results flagged for a closer look

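Among the 73 named regions and 2 shares of bases per library, 300 groups of 4 animals were checked for a single animal far from the other 3 by Dixon's 95% criterion, and 33 groups held one. Chance gives about 1 in 20 groups, and several of the regions share a host gene. No explanation was tested for any of them.

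Replicate 3 of low gain, low intake, whose first exons are poorly covered, was the outlying animal in 12 groups. It was the lowest in MRPS25 at 4.21, DPYD at 180.25, FLVCR2 at 0.00, NELL2 at 120.83 and the ZFP36 region at chr18:49370971 at 2.97. It was the highest in MTHFD2L at 8.68, NID2 at 4.28, ZAK at 22.89, GET4 at 11.03, PALM2 at 245.94, EIF4A2 at 249.91 and HNRNPA2B1 at 521.44. The other low gain, low intake outliers were replicate 1 in OSTM1 at 34.41 and in FHIT at 117.77, both the highest of their group.

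In low gain, high intake, replicate 1 was the highest in both PRKG1 regions, at 42.27 and 39.17, and in FLVCR2 at 12.30. Replicate 2 was the highest in SPIN1 at 490.27, GET4 at 5.82 and CYP3A5 at 4.68, and replicate 3 in NPAS2 at 69.92. Replicate 4 was the highest in TACR3 at 64.05 and the lowest in ZFP36 regions at chr18:49366731, at 3.28, and chr18:49367749, at 1.96.

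In high gain, high intake, replicate 4, also low in first exons, was the lowest in MRPS25 at 31.06 and in the ZFP36 region at chr18:49366731 at 0.10, and the highest in MTHFD2L at 8.34 and HFM1 at 110.73. Replicate 1 was the highest in NOP56 at 41.61. In high gain, low intake, replicate 1, the group's only library not low in first exons, was the highest in HYAL2 at 0.37, FHIT at 187.89 and GLT1D1 at 3.52, and replicate 2 the highest in SGTB at 5.89.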

How the results depend on the processing

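No member passed for gain, intake or their interaction with pseudocounts of 0.5 and 1, a filter on the mean, other scalings, limma with neither trend nor robust fitting, the first-exon index as covariate, or member minimums of 1 and 4. In the 11 libraries that are not low in first exons, 8 members passed for gain and 0 for intake. With no filter on low values 12 passed for gain (1 higher and 11 lower, led by SMAGP, beside 0.138% of 2351372 regions) and 3 for intake (KIAA1797, IFT27 and LOC777593, all higher at high intake, beside 0.00676% of regions), and the cause was not tested. Leaving out 1 library gave 0 to 49 members for gain, the 49 without low gain, low intake replicate 3, and 0 to 0 for intake and for the interaction. For the intron-to-exon ratio it gave 0 to 4 for gain, the 4 without that same library, and 0 to 1 for intake, the 1 without high gain, high intake replicate 4. The intake difference in the intron-only share turned to 0.249 percentage points in those 11 libraries, while with 1 library left out it ran from -0.321 to -0.126, and the gain difference from 0.156 to 0.369. Of the 36 estimates named by their p, none changed direction under an alternative. They were chosen for a small p in these same libraries, so a kept direction is no independent check. No paired analysis was possible because the 4 groups hold different animals, with 1 library per animal. Depth limits the regions with few reads: 45 members held under 5 estimated reads per library.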
